A study of Sus scrofa with 30 samples.

Results

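MYLPF encodes the regulatory light chain of fast skeletal muscle myosin. The genes described here are the 100 whose log2 signal followed that of MYLPF most closely over 15 arrays of mesenchymal tissue from pig teats. They were chosen by their Pearson correlation r with MYLPF over those 15 arrays, out of 6505 ranked genes. Each gene is represented by the probe set with the highest mean over all 30 arrays. Before ranking, 260 of the 6765 measured genes were set aside: MYLPF itself, 13 other striated muscle genes such as TNNT3, MYH2, MYH7 and DES, and the respiratory chain, mitochondrial ribosome and solute carrier genes recognised by their symbols. The 100 genes therefore lack contractile companions of MYLPF such as TNNT3 and MYH2 by construction. Of the genes set aside by name or symbol, MYLPF not counted, 13 had an r above that of the last gene kept. MYL2 (0.59) and CA3 (0.05), both set aside by name, had a lower one.

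A skeletal muscle fibre contracts when calcium, released from the sarcoplasmic reticulum, lets myosin of the thick filament pull on actin of the thin filament. Fast fibres use their own isoforms of myosin light chains, troponins and the calcium pump, and draw much of their ATP from glycogen, glycolysis and phosphocreatine. The contractile, calcium and energy genes of one fibre type are usually expressed together in it.

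The arrays came from teats of 10 peripubertal pigs of commercial dam lines, taken at slaughter at a mean end weight of 110 kg, with 500 ng of total RNA per labelling. Mesenchymal tissue was measured in the inverted teats of 5 affected animals, in normal teats of the same 5 animals and in normal teats of 5 non-affected animals, and epithelial tissue was measured in the same 3 groups. An affected animal is one with inverted teats. Affected animals were 963, 964, 1037, 1059 and 1103, and non-affected animals were 950, 957, 1040, 1058 and 1109. Animal 963 was German Landrace, 1103 was Pietrain x (Large White x German Landrace). Non-affected animals 957 and 1109 were of these breeds in the same order. The breed label of the other 6 is Large White x German Landrace. Each array holds 1 piece of 1 teat. The main fits took arrays of the same animal as independent and did not use the pairing. Their p-values thus measure the spread of single pieces within groups.

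The level of MYLPF was high in 13 of the 15 mesenchymal pieces and low in the other two. In mesenchymal pieces of inverted teats its log2 signal was 3.83, 12.27, 13.44, 13.37 and 11.98 in animals 963, 964, 1037, 1059 and 1103. In mesenchymal pieces of normal teats of the same animals, in the same order, it was 13.48, 12.74, 11.83, 13.38 and 11.72. In non-affected animals 950, 957, 1040, 1058 and 1109 it was 13.40, 11.57, 1.15, 13.34 and 12.73. The inverted teat of animal 963 and the teat of animal 1040 thus lay far below the rest, which spanned 11.57 to 13.48, and the 3 groups overlapped.

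In epithelial pieces MYLPF ran over almost its whole scale. Inverted teats had 11.47, 9.61, 10.22, 0.74 and 5.33 in animals 963, 964, 1037, 1059 and 1103. Normal teats of the same animals had 11.68, 0, 6.17, 2.02 and 0, and those of animals 950, 957, 1040, 1058 and 1109 had 8.79, 1.84, 0, 9.62 and 0. Both epithelial pieces of animal 963 were the highest, and 4 pieces of other animals were listed at 0, the lowest value of the scale. In the inverted teat of animal 963 the order of the tissues was turned round, with 3.83 in the mesenchymal and 11.47 in the epithelial piece. The mean of 13 adipocyte genes was 10.5 in the mesenchymal piece of that teat and 10.7 in that of animal 1040, above all epithelial pieces (7.08 to 9.84), although other mesenchymal pieces (9.18 to 11.2) overlapped these. The means of the other 7 cell type lists in both pieces lay within the epithelial ranges, such as 9.19 for luminal, 7.49 for keratinocyte and 11.5 for fibroblast genes in the inverted teat of 963. For 1040 the endothelial, luminal, keratinocyte, fibroblast and Schwann means did so only through the epithelial piece of the inverted teat of 1103. Most of these means also lay within the ranges of the other mesenchymal pieces. In 1040 the endothelial (8.39, against 7.17 to 8.15) and leukocyte means (4.96, against 5.22 to 6.56) did not. Whether pieces were exchanged was not tested. The pieces are bulk tissue, so fewer muscle fibres and less muscle RNA per fibre cannot be told apart.

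**Figure D1:**
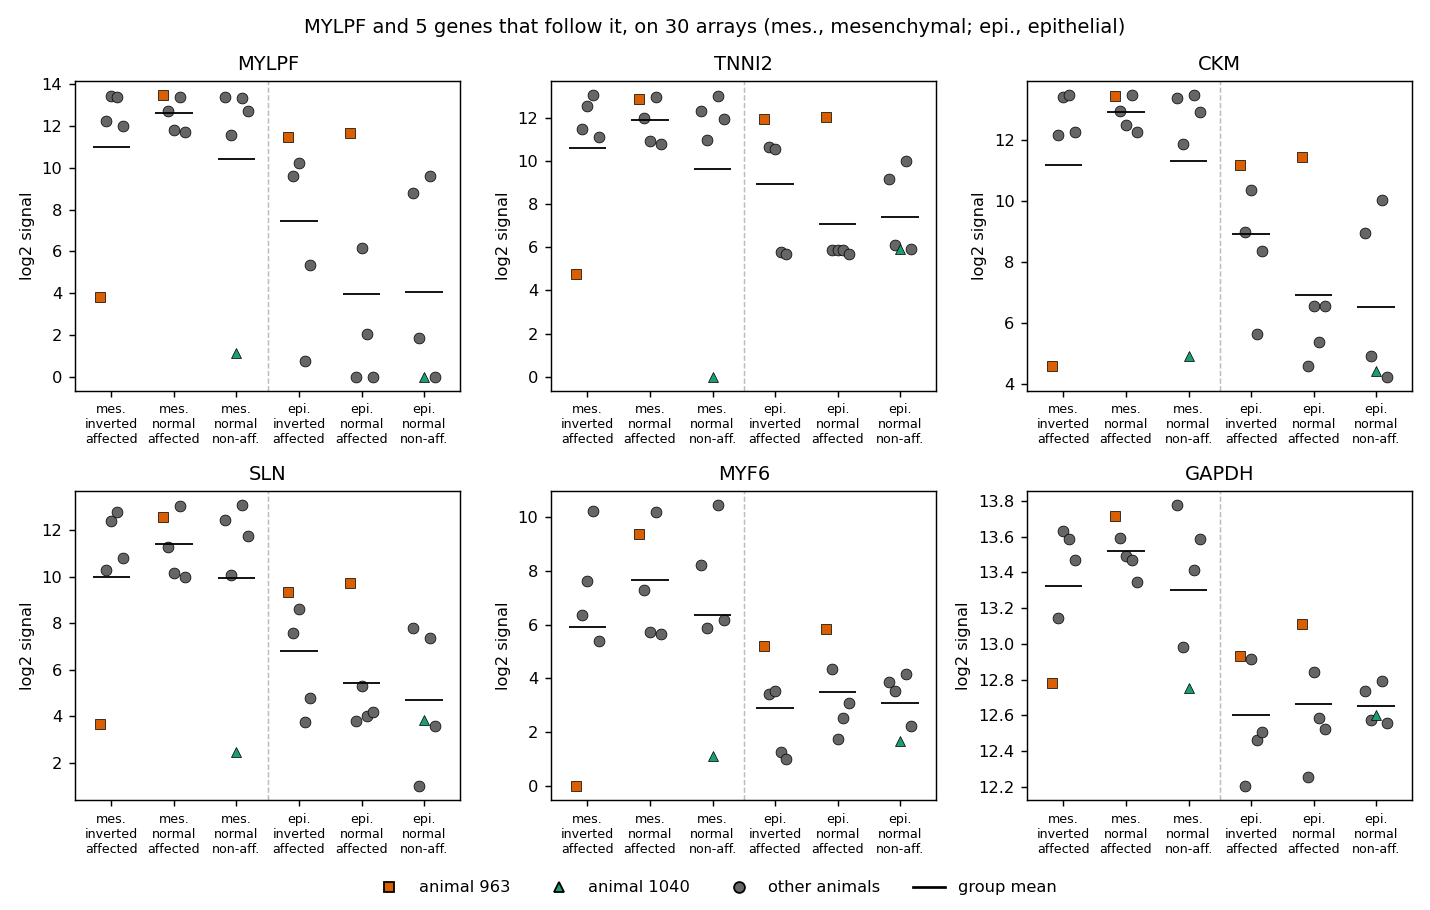
Log2 signal of MYLPF and of 5 genes that followed it (TNNI2, CKM, SLN, MYF6, GAPDH) on the 30 arrays, by tissue, teat type and affection status. Each point is 1 array, the bar is the group mean, squares mark animal 963 and triangles animal 1040; in each panel the inverted teat of 963 and the teat of 1040 are the 2 lowest mesenchymal pieces, and both pieces of 963 are the highest epithelial ones.

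The 100 values of r that made the choice ran from 0.991 for TNNI2 to 0.6297 for FABP2. The limit fell in a dense stretch: the next gene, PLG, had 0.6294, followed by HIGD1A, SNRPC, CAND2 and MTMR14, the fifth gene outside, with 0.6279. At the low end stood UBE2N, TBC1D7, RAMP1, DNPEP, OCIAD1, TRIM55, SMIM20, CHCHD1, UCHL3 and FABP2. FABP2, the intestinal fatty acid binding protein, shows what the limit admits: it was listed at 0 in both low pieces and at 0.26 to 4.11 in the other 13, and its r over those 13 was -0.30.

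The 2 low pieces weighed heavily on the choice. In 76 of the 100 genes both of them lay below the other 13 pieces, against 1.75% of all 6505 ranked genes. The same values chose the genes, so nothing further follows from that count. Without the 2 pieces, 52 of the 100 genes would still have ranked among the first 100.

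Of the 100 genes, 43 belonged to at least 1 of 9 lists of skeletal muscle genes, drawn up by function, and 57 belonged to none. The 9 lists held 131 measured genes, 14 of them set aside by the rule, and the 100 genes are 1.54% of all ranked genes. The muscle-list genes varied by a median of 8.85 on the log2 scale over the mesenchymal pieces, and the other genes by 1.90, against 1.40 for all ranked genes. The median r was 0.86 for the muscle-list genes, 0.67 for the others and about 0 for all ranked genes. Over the 13 higher pieces alone the medians were 0.88 and 0.57. Of the 52 genes that kept their place without the 2 low pieces, 37 were muscle-list genes and 15 were not.

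**Figure D2:**
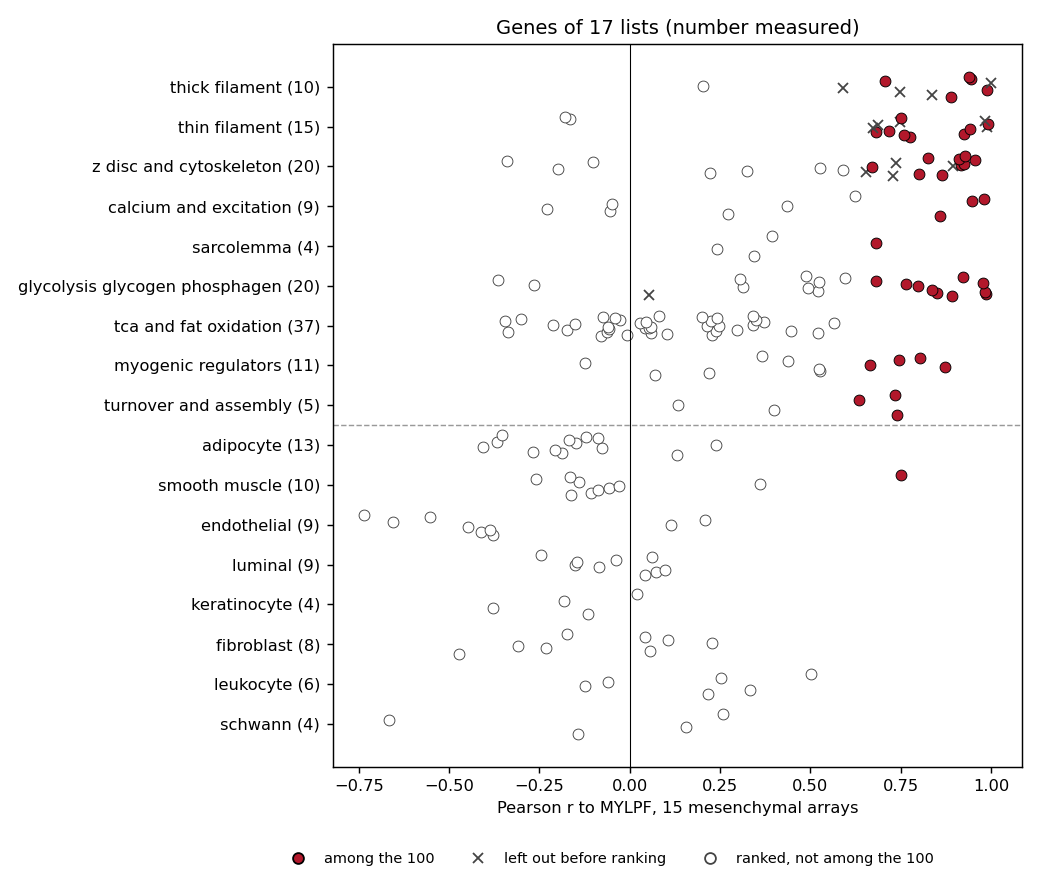
Pearson r to MYLPF over the 15 mesenchymal arrays for the measured genes of 9 skeletal muscle lists (above the dashed line) and 8 lists of other cell types (below it). Filled points are among the 100, crosses were left out before ranking and open points were ranked lower; the citric acid cycle and fat oxidation list holds no filled point, and TPM2 on the smooth muscle list is the 1 filled point below the dashed line.

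Among thick filament genes MYL1, the alkali light chain of fast myosin, was the closest to MYLPF. It had 12.15 to 13.41 in 4 mesenchymal pieces of inverted teats, 11.38 to 13.52 in normal teats of affected animals and 11.96 to 13.59 in 4 pieces of non-affected animals. In the pieces of animals 963 (inverted teat) and 1040 it had 3.37 and 3.51. MYOM2 and MYOM1, which cross-link myosin at the M band, had r of 0.95 and 0.71. TTN, the giant spring between Z disc and M band, had 0.94, and MYBPC1, a myosin binding protein, had 0.89. These were 5 of the 10 measured thick filament genes; of the rest, MYLPF, MYH2, MYH7 and MYL2 were set aside by rule, and MYL3, a light chain of slow and ventricular myosin, had an r of 0.20.

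TNNI2, the inhibitory troponin of fast fibres, was the closest of all. In mesenchymal pieces of inverted teats it had 4.74, 11.46, 12.54, 13.04 and 11.12 in animals 963, 964, 1037, 1059 and 1103. Normal teats of these animals had 12.87, 11.96, 10.90, 12.96 and 10.77, and those of animals 950, 957, 1040, 1058 and 1109 had 12.30, 10.95, 0, 13.02 and 11.93. The same 2 pieces were low and the other 13 stayed within 10.77 to 13.04. Of 15 measured thin filament genes 8 were among the 100: TNNI2, the filament-end cappers TMOD4 (r 0.94) and TMOD1 (0.72), the filament ruler NEB (0.93), cardiac actin ACTC1 (0.78), the actin nucleator LMOD3 (0.76), the tropomyosin TPM2 (0.75) and NRAP (0.68). TPM1 and TPM3, tropomyosins that other cells also use, had r of -0.17 and -0.18.

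Z disc and cytoskeletal genes supplied 9 of 20 measured. They were SMPX (r 0.96), a small protein of the costamere, the actin-binding repeat proteins XIRP2 (0.93) and XIRP1 (0.83), the Z disc proteins MYOZ1 (0.93), MYOT (0.92) and TCAP (0.91), the stress-responsive titin partner ANKRD1 (0.87), the muscle protease CAPN3 (0.80) and the small heat shock protein HSPB8 (0.67). ANKRD1 was listed at 0 in both low pieces and ran from 3.30 to 11.64 in the other 13. XIRP1 spanned 12.61, one of the widest ranges of the 100.

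Calcium handling gave 3 of 9 genes, all of the sarcoplasmic reticulum: SLN (r 0.98), the sarcolipin that restrains the calcium pump, RYR1 (0.95), the calcium release channel, and ATP2A1 (0.86), the pump of fast fibres. RYR1 was listed at 0 in both low pieces and ran from 7.02 to 11.55 in the other 13. ATP2A2, the pump of slow fibres and many other cells, had an r of 0.27, and its regulator PLN -0.05. Over the 13 higher pieces these were 0.49 and 0.52, against 0.79 for ATP2A1. From the sarcolemma list POPDC3 (0.68) was the 1 gene of 4.

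The energy genes among the 100 came from 1 of 2 lists. Of 20 measured genes of glycolysis, glycogen and phosphagens, 10 were among the 100: CKM (r 0.99) and CKMT2 (0.85), the cytosolic and mitochondrial creatine kinases of muscle, ENO3 (0.98) and PGAM2 (0.98), muscle forms of enolase and phosphoglycerate mutase, PYGM (0.92), which releases glucose from glycogen, AMPD1 (0.89), the AMP deaminase of muscle, and GAPDH (0.84), LDHA (0.80), PFKM (0.76) and PGM1 (0.68). Some genes of the same list did not follow MYLPF, such as LDHB (-0.27) and PHKG1 (-0.36). Over the 13 higher pieces they had -0.38 and 0.14. Of 37 measured genes of the citric acid cycle and fat oxidation none was among the 100, which are 1.54% of all ranked genes. The highest r there was 0.57, for IDH2. Over the epithelial arrays the median r of these 37 genes was 0.34, against 0.01 for all ranked genes. Respiratory chain genes with the symbols set aside could not appear, while CYCS, which this list holds, was ranked and had 0.45.

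By the probe sets used in the ranking, GAPDH and LDHA moved on a far smaller scale than most contractile genes. GAPDH, a glycolytic enzyme of nearly all cells, ran from 12.76 to 13.78, and its 2 lowest mesenchymal pieces were again those of 1040 (12.76) and of the inverted teat of 963 (12.78). LDHA, the lactate dehydrogenase subunit common in fast muscle, had 10.25 and 10.26 there and 11.13 to 13.23 elsewhere. PGAM2 in contrast spanned 13.29, the widest range of the 100, with 0 in the piece of 1040 and 0.39 in the inverted teat of 963. Further probe sets of GAPDH spanned 1.43, 2.66, 4.55 and 6.17 over the mesenchymal pieces, with r of 0.85, 0.38, 0.59 and 0.44. Its narrow range thus holds for the probe set used.

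Of 11 measured myogenic regulators 4 were among the 100. MYF6, the transcription factor of mature fibres, had 0, 6.36, 7.61, 10.20 and 5.38 in mesenchymal pieces of inverted teats of animals 963, 964, 1037, 1059 and 1103. It had 9.36, 7.28, 5.72, 10.17 and 5.66 in normal teats of the same animals, and 8.20, 5.87, 1.13, 10.45 and 6.18 in animals 950, 957, 1040, 1058 and 1109. The highest values were in animals 1058 and 1059, which also led the median of the muscle-list genes over the mesenchymal arrays (11.33 to 11.55). SMYD1, a methyltransferase of striated muscle, had an r of 0.80, the homeobox factor SIX4 0.75 and the myogenic factor MYOD1 0.66. MYF5, which acts early in the lineage, had 0.52 and PAX3 -0.12, both outside. Over the 13 higher pieces they had 0.72 and 0.12, and MYOD1 had 0.74.

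Genes of assembly and turnover gave 3 of 5: UNC45B (r 0.73), the chaperone of myosin, ASB11 (0.74), a ubiquitin ligase subunit, and TRIM55 (0.63), a ring finger protein of the sarcomere. UNC45B and TRIM55 were listed at 0 in the inverted teat of 963 but at 3.82 and 5.10 in the piece of 1040. The 2 low pieces were thus not alike in every gene.

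Lists of other cell types gave 1 gene. The 100 genes are 1.54% of the 6505 ranked genes, so short lists would hold few of them in any case. Of 13 adipocyte, 9 endothelial, 9 luminal, 4 keratinocyte, 8 fibroblast, 6 leukocyte and 4 Schwann cell genes none was among the 100. The 1 smooth muscle gene of 10 was TPM2, which the thin filament list holds too. The 9 endothelial genes had a median r of -0.41, from -0.74 for VWF and -0.65 for PECAM1 to 0.11 for KDR and 0.21 for TEK. Over the 13 higher pieces VWF and PECAM1 had -0.66 and -0.30, and KDR and TEK 0.55 and 0.37. The mean of the endothelial list was 7.84 in the inverted teat of 963 and 8.39 in the piece of 1040, against 7.17 to 8.15 in the other 13. The luminal list was at 9.19 and 5.52 in these pieces, within the 2.82 to 10.98 of the others, and the part of other cells in the level of the 100 genes was not tested.

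The 57 genes on no muscle list were a mixed company. A few are known muscle genes that the lists did not hold, such as CMYA5, a scaffold protein of striated muscle, ABRA, an actin-binding activator of muscle, MRLN, a micropeptide that restrains the calcium pump, and ITGB1BP2, a muscle integrin partner; the last 3 are named after their values were seen. CMYA5 ran from 5.29 to 11.52 in the 13 higher pieces and had 2.63 and 1.63 in the inverted teat of 963 and in 1040. GDF11, a ligand of the TGF-beta family, had 0.72 and 0.75 there and 4.07 to 7.75 elsewhere.

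Others are general cell genes with narrow ranges. The 8 narrowest were AAGAB (0.60), GTF2A2 (0.70), UBE2N (0.83), LSM7 (0.92), SMYD2 (0.95), FAM96B (0.97), AKIRIN1 (0.98), on the log2 scale from lowest to highest piece, and TMEM126B, which ran from 7.37 to 8.37. GTF2A2, a subunit of a general transcription factor, ran from 8.51 to 9.22. Its r of 0.69 over 15 pieces was 0.34 over the 13, while CKM kept 0.97. In all, 33 of the 100 genes spanned less than 2 by the probe set used, and GAPDH was the 1 muscle-list gene among them. In contrast 41 spanned more than 6, of which 31 were muscle-list genes.

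Other probe sets of the same genes were measured on the same arrays, and their r was not used in the ranking. Of the 100 genes 28 had 42 further probe sets, and 11 of these had an r at or above that of the last gene kept. Among muscle-list genes 9 of 18 did, with a median r of 0.64, and among the others 2 of 24, with a median of 0.18. Further probe sets of TTN (0.92), ATP2A1 (0.95), TPM2 (0.98, 0.78 and 0.38) and PYGM (0.93, 0.89 and 0.84) mostly followed MYLPF. Those of MYF6 (-0.26), SIX4 (-0.07), GDF11 (0.08) and FNTA (0.08 and 0.07) did not, so the place of these genes rests on 1 probe set. Probe sets of a gene can match different transcripts or miss it, which was not tested.

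**Figure D3:**
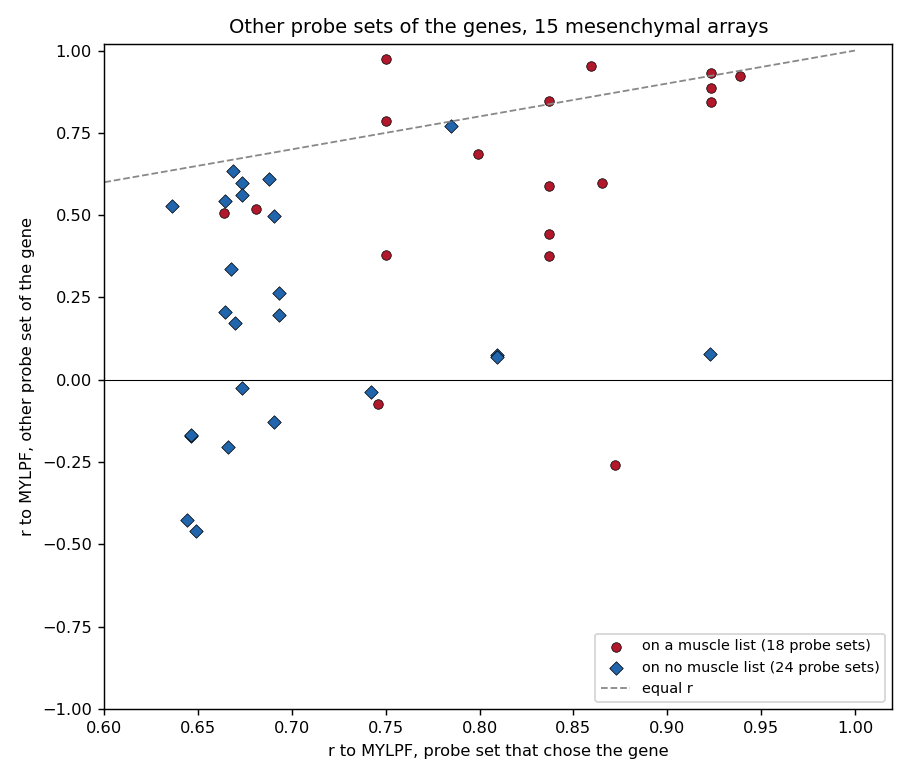
Pearson r to MYLPF over the 15 mesenchymal arrays of the probe set that represented the gene (horizontal) and of each other probe set of that gene (vertical), for 28 genes. The dashed line marks equal r; 9 of 18 further probe sets of muscle-list genes and 2 of 24 of the other genes reach the r of the last gene kept.

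The ranking by r left the 15 epithelial arrays out, although they counted in the mean level that picked the probe set of each gene. The muscle-list genes moved with MYLPF there too, while most others did not. The median r to MYLPF over the epithelial arrays was 0.41 for the 100 genes and 0.01 for all ranked genes. It was 0.76 for the muscle-list genes and 0.16 for the others. An r above 0.5 was found for 37 of the 100 genes, 32 of them muscle-list genes, against 4.98% of all ranked genes. Among the 100 genes closest to MYLPF in epithelial tissue were 29 of these genes, against 1.54% of all ranked genes, and 26 of the 29 were muscle-list genes. The points share their animals with the mesenchymal arrays, and the correlations are a description without a test.

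The closest in epithelial tissue were ENO3 (r 0.97), MYL1 (0.96), CKM (0.95), TTN (0.95) and SLN (0.92). For ATP2A1 the probe set used had 0.60, and its further probe set 0.98. CKM had 11.18, 8.97, 10.35, 5.64 and 8.36 in epithelial pieces of inverted teats of animals 963, 964, 1037, 1059 and 1103. It had 11.44, 4.61, 6.58, 5.39 and 6.57 in normal teats of the same animals and 8.95, 4.93, 4.44, 10.03 and 4.25 in animals 950, 957, 1040, 1058 and 1109. Its pieces at 8.95 and above were those in which MYLPF was at 8.79 and above. The inverted and normal teats of 1103 had 8.36 and 6.57, with MYLPF at 5.33 and 0.

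Outside the muscle lists, CMYA5 (0.84), UBE2N (0.75) and CILP (0.67) were among the first 100 in epithelial tissue. Over the 13 higher mesenchymal pieces their r was 0.89, 0.17 and 0.42. A further probe set of CILP had -0.46 over the 15 mesenchymal and 0.46 over the 15 epithelial pieces. In epithelial tissue the r was below 0 for 16 genes, and 15 of them were on no muscle list. The lowest were GTF2A2 (-0.46), LYPD6 (-0.41), FAM96B (-0.40), UBXN2A (-0.26) and ARNTL (-0.24). Some muscle-list genes did not follow MYLPF there: POPDC3 had -0.05, SIX4 0.00 and UNC45B 0.06. UNC45B stayed between 3.82 and 5.01 in all 15 epithelial pieces, and POPDC3 between 3.70 and 5.36. Such values are low for these arrays. SIX4 lay below the 30th percentile of its array in 15 of the 15 epithelial pieces, UNC45B in 13 and POPDC3 in 11.

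The epithelial relation was weaker without animal 963. Both of its epithelial arrays were the farthest from the median of MYLPF, and without them the median r was 0.27 for the 100 genes, 0.63 for the muscle-list genes and 0.13 for the others. The order of the kinds of genes was as before.

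**Figure D4:**
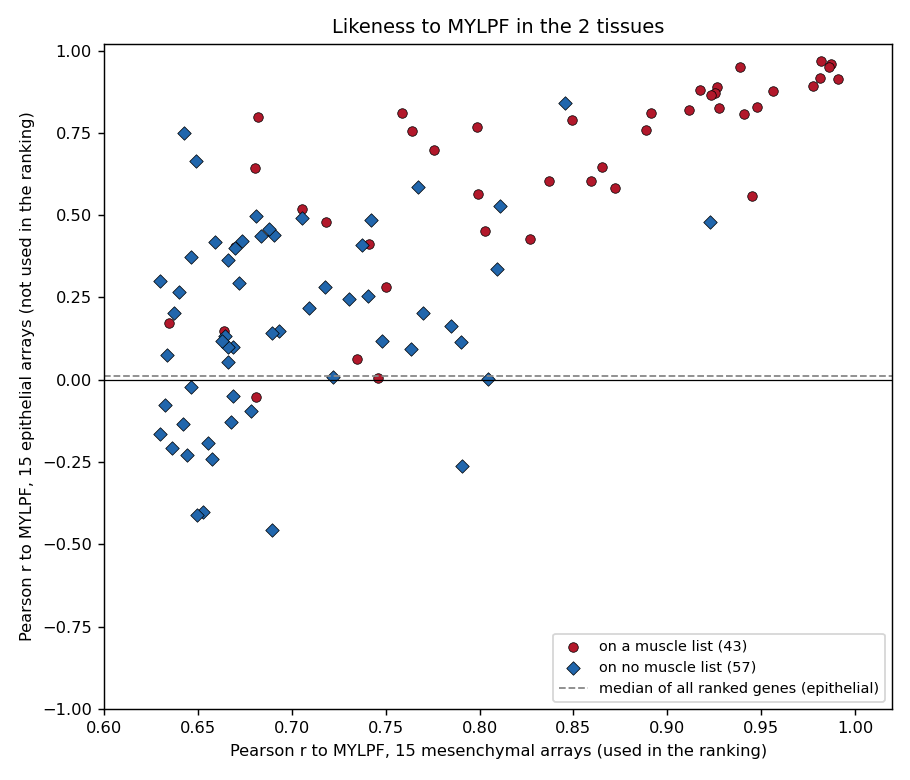
Pearson r to MYLPF of the 100 genes over the 15 mesenchymal arrays, which ranked them (horizontal), and over the 15 epithelial arrays, which the ranking left out (vertical). The dashed line is the median of all ranked genes in epithelial tissue; 32 muscle-list genes and 5 others lie above 0.5.

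Over the mesenchymal arrays the genes covary with each other by construction, since their r to MYLPF on these arrays chose them. The pairwise values are a description, without a value for pairs of all ranked genes beside them. The median r between pairs of muscle-list genes was 0.89 over mesenchymal and 0.56 over epithelial arrays. Between pairs of the other genes it was 0.64 and 0.10.

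Most of the 100 genes were higher in mesenchymal than in epithelial pieces of normal teats. The comparison was made with limma over the 10 animals, and genes with a Benjamini-Hochberg adjusted p under 0.05 over all probe sets are called changed. Of the 95 genes tested 66 changed, 65 of them higher in mesenchymal tissue, against 33.5% of all probe sets called and 20.6% called higher. The median difference was 1.48, against 0.06 for all probe sets tested. After quantile normalization 63 genes were called, 62 of them higher, and the split of all called probe sets turned to 2870 higher of 6351, against 3763 of 6124 as deposited. The rule used how these mesenchymal arrays vary, not their level against epithelial tissue, but the arrays are the same. The low-value filter can also pass a gene through its high tissue alone, so the counts are a description. SIX4, PLCD4, RAB3A, MYOD1 and FABP2 did not pass the filter.

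The size of the difference went with the kind of gene. Of 41 tested muscle-list genes 37 changed, all higher, with a median of 3.71, and of 54 others 29 changed with a median over the 54 of 0.52. The largest were MYL1 (6.19 ± 1.42, SE, adjusted p = 0.0028), RYR1 (6.16 ± 1.15, adjusted p = 0.000547), TTN (6.01 ± 1.25, adjusted p = 0.0014), SMPX (5.79 ± 1.24, adjusted p = 0.0017) and SLN (5.62 ± 1.17, adjusted p = 0.0014), by limma. MYL1 and TTN were higher in the mesenchymal piece in 10 of 10 animals and the other named genes in 9. MYLPF itself differed by 7.52 ± 1.74.

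Every tested thin filament, calcium and energy gene among the 100 changed (8 of 8, 3 of 3 and 10 of 10), and so did 4 of 5 thick filament and 8 of 9 Z disc genes. MYOM1 (1.44 ± 0.60), XIRP1 (1.75 ± 0.92), SMYD1 (0.33 ± 0.23) and TRIM55 (0.76 ± 0.41) did not pass. GAPDH, at the small end, was higher by 0.75 ± 0.13 in 10 of 10 animals.

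ADSSL1, the muscle form of the enzyme that makes adenylosuccinate from IMP on the way to AMP, was the 1 gene lower in mesenchymal tissue. The difference was -1.37 ± 0.44 (adjusted p = 0.021, limma), with 2 of 10 animals going the other way. It had 6.70 to 11.38 in mesenchymal pieces of normal teats but 9.94 to 10.32 in the epithelial pieces, so it followed MYLPF in the first tissue (r 0.67) at levels mostly below those of the second. A further probe set of ADSSL1 had an r of 0.64 and 0.57 in mesenchymal and epithelial tissue. UBXN2A (-0.23 ± 0.42), PPID (-0.17 ± 0.21), LYPD6 (-0.16 ± 0.21) and ARNTL (-0.12 ± 0.20) were the next lowest, none of them changed.

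**Figure D5:**
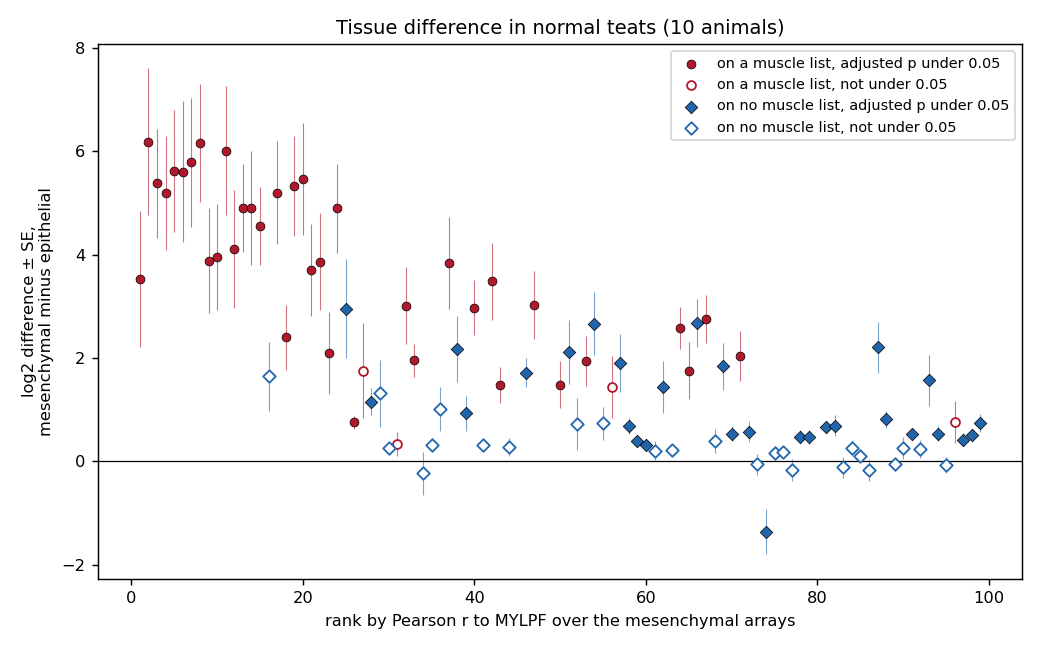
Log2 difference (mesenchymal minus epithelial, ± SE from limma) in normal teats of 10 animals for the 95 tested genes, by their rank of r to MYLPF. Filled symbols have an adjusted p under 0.05; muscle-list genes at the left reach 6.19, and ADSSL1 is the 1 filled symbol below 0.

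In inverted teats, with 5 animals, the same comparison called 15 of 88 tested genes, all higher in mesenchymal tissue, against 12.3% of all probe sets called and 11.5% called higher. The median difference was 0.93, against 0.12 for all probe sets tested. The called genes were mainly narrow ones on no muscle list (12 of 15), such as UCHL3 (0.96 ± 0.19, adjusted p = 0.017, limma), a deubiquitinase that was higher in 5 of 5 animals. PGM1 (2.32 ± 0.56), LDHA (1.74 ± 0.46) and GAPDH (0.72 ± 0.21) were the muscle-list genes called, each higher in 4 of 5. The wide contractile genes were not called: MYOM2 differed by 3.54 ± 1.45, AMPD1 by 3.53 ± 1.52 and MYLPF by 3.50 ± 2.27, higher in 4 of 5 animals each.

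That 1 animal was 963. In its inverted teat 22 of the 100 genes, and 1 of the 43 muscle-list genes (SIX4), were higher in the mesenchymal piece, while in the other inverted teats 79 to 98 of the 100 were. In normal teats the count was 75 to 98, apart from 31 in animal 1040.

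The inverted-teat calls moved with single arrays and with the scaling. With the animal as a replicate block 24 genes and 3684 probe sets were called, against 15 and 2114 without it. Leaving out animal 963 gave 38 genes, animal 964 gave 6, and animals 1037, 1059 and 1103 gave 0 each. Without the mesenchymal array of 963 alone 44 were called, and without the epithelial array of 1103, on which keratinocyte and luminal genes were low, 8. After quantile normalization 0 genes and 2 probe sets were called by limma.

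Whether inverted teats differ from normal ones is the question of the series, and the epithelial arrays did not enter the ranking by r, only the mean level that picked the probe sets. None was called in any of the 3 epithelial comparisons by limma, nor was any probe set (0% of 17671). Between inverted and normal teats of the 5 affected animals 46 of 79 tested genes were higher, with a median of 0.08, and 0 had an unadjusted p under 0.05, against 1.71% of all probe sets. Muscle-list genes stood on the higher side in 26 of 31 tested, with a median of 0.97, and none was called. The other 12 did not pass the low-value filter, which a gene low in most epithelial pieces can pass through its few high ones. Muscle-list genes also rise and fall together in the same pieces, so the counts of higher genes in the 3 comparisons are a description. MYL1 differed by 3.24 ± 2.03, TTN by 2.37 ± 1.79, SMPX by 2.14 ± 1.40 and CKM by 1.98 ± 1.41. MYLPF differed by 3.50 ± 2.63 and was higher in 3 of 5 animals. At the lower end were TMOD4 (-0.40 ± 0.85), TBC1D7 (-0.31 ± 0.23) and SMIM20 (-0.26 ± 0.13), the last lower in 5 of 5.

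For affected against non-affected animals, in epithelial pieces of normal teats, 42 of 79 were higher with a median of 0.01. Here 2 genes had an unadjusted p under 0.05, against 2.37% of all probe sets: UBXN2A (0.83 ± 0.28) and LOC396711 (1.21 ± 0.50). Neither is a muscle-list gene. UBXN2A, a cofactor of a protein-unfolding ATPase, had 5.50, 6.32, 4.97, 5.48 and 5.75 in animals 963, 964, 1037, 1059 and 1103 and 5.02, 4.92, 5.40, 3.91 and 4.61 in animals 950, 957, 1040, 1058 and 1109, so the groups overlapped.

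For inverted teats against teats of non-affected animals 48 of 79 were higher with a median of 0.12, and 3 genes had an unadjusted p under 0.05, against 2.74% of all probe sets. They were LOC396711 (1.58 ± 0.50), UBXN2A (0.72 ± 0.28) and the thin filament capper TMOD1 (0.42 ± 0.17). With larger errors CKM differed by 2.38 ± 1.41 and PGAM2 by 2.38 ± 1.43. The last 2 comparisons share the non-affected animals. LOC396711 lies next to MYH2 in the RefSeq gene order of the pig.

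In mesenchymal tissue, whose arrays chose the genes, no probe set was called in the 3 comparisons (0% of 17850), and 0.437%, 1.13% and 1.23% had an unadjusted p under 0.05 by limma. The median difference of the 96 tested genes was -0.52 between inverted and normal teats of affected animals. It was 0.39 for affected against non-affected animals and -0.01 for inverted teats against those of non-affected animals. These values moved with single animals. Leaving out 1 animal, the first ran from -1.05 (without 1037) to 0.21 (without 963), the second from -0.08 (without 1040) to 0.91 (without 1058) and the last from -0.60 (without 1040) to 0.40 (without 963).

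A few of the 100 genes are neighbours on the pig genome by the RefSeq gene order: LDHC with LDHA and AMPD1 with BCAS2. DNPEP neighbours DES, which was set aside. Whether probe sets of neighbours share signal was not tested.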

How the data were processed

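The 30 arrays are Affymetrix Porcine Genome arrays, 1 per tissue piece. The deposited values are log2 signals of 24123 probe sets, with the base inferred from their range (0 to 20.8), as no label gives it. Per the submitters' processing notes GCOS 1.1.1 and PLIER were used, in roles they leave out, and whether arrays were normalised to each other is not given in the sources used here. Array medians lay between 5.71 and 6.04, and 354 to 752 probe sets per array were listed at 0. The number of arrays limits the precision.

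Control probe sets (124) were left out. The platform table pairs 10099 probe sets with 1 symbol (9989 of them are in the RefSeq table) and 198 with several; 13826 are unnamed here. Groups were read from the tissue, teat and affection labels. Comparisons used limma 3.58.1 in R 4.3.3 (lmFit, eBayes) on all probe sets above the 30th percentile of their array in at least 5 arrays of the fit, adjusted after Benjamini and Hochberg (threshold 0.05). Tissues were compared in normal teats (20 arrays, affection status as covariate) and in inverted teats (10 arrays); teat groups were compared within each tissue over 15 arrays. The fits were tested on simulated data.

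The genes, the 17 gene lists and the rule for naming genes were chosen with earlier results of these data known. Named were the 10 highest and 10 lowest by r, the 5 just outside, the 8 widest and 8 narrowest ranges, up to 6 per list, the 5 highest and 5 lowest by epithelial r, and the 5 largest differences per direction; other names were chosen after their values were seen. Arrays of 1 animal are paired by label; after removal of group means they correlated with r of 0.15 to 0.29 (epithelial teats), 0.08 to 0.42 (mesenchymal teats), -0.01 to 0.37 (tissues of inverted teats) and 0.00 to 0.51 (tissues of normal teats). Alternatives were Spearman correlation, quantile normalization, no filter, a floor at the 30th percentile, the mean of all probe sets, group means taken off, the animal as a replicate block and leaving out each animal; 4 further ones, leaving out single arrays, were added after seeing the data.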

Additional observations from a re-analysis of the deposited data

Results flagged for a closer look

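Of 48 combinations of group and item examined (MYLPF, MYL1, TNNI2, SLN, CKM and others), 14 had 1 array that stood apart from the other 4 of its group. Chance alone gives such a flag in about 1 of 20 groups, and most of these items were chosen to move together. The mesenchymal piece of the inverted teat of animal 963 was the lowest of its group for MYLPF (3.83), MYL1 (3.37), TNNI2 (4.74), SLN (3.66) and CKM (4.60). The mesenchymal piece of animal 1040 was the lowest of its group for MYLPF (1.15), MYL1 (3.51), TNNI2 (0), SLN (2.43) and CKM (4.93). The epithelial piece of the normal teat of animal 963 was the highest of its group for TNNI2 (12.04), SLN (9.74) and CKM (11.44), and for the median of the 100 genes (6.98).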

How the results depend on the processing

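The set of genes depended on the measure of likeness. Of the 100 genes, 57 stayed with Spearman correlation and 52 without the 2 low mesenchymal arrays. Other settings kept 75 (values floored at the 30th percentile) to 89 (quantile normalization), and leaving out 1 animal kept 63 (animal 963) to 92. The median r without the 2 low arrays was 0.79. The median epithelial r was 0.27 without the 2 epithelial arrays farthest from the median of MYLPF, and 0.27 to 0.49 without 1 animal. In normal teats the tissue comparison called 59 to 73 of the genes and 4402 to 6755 probe sets without 1 animal; the replicate block gave 73 and 8128, and outside the inverted-teat tissue comparison it moved no count of calls by over 1.5 times. In inverted teats the ranges without 1 animal were 0 to 38 genes and 1 to 1490 probe sets. Quantile normalization gave 0 and 2, no filter 6 and 1090, the replicate block 24 and 3684, leaving out the mesenchymal array of 963 44 and 1958, and leaving out the epithelial array of 1103 8 and 1351; the cause was not tested. The teat comparisons called 0 genes under every setting run, by limma, and 0 or 1 probe sets in those without 1 animal. With 5 animals a group, differences within the spread of single pieces were not detectable.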

Other observations

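Several genes on no muscle list followed MYLPF also over the 13 higher mesenchymal pieces, and 4 of them are given here. They were picked after their values were seen, so the values are a description; others, such as CMYA5 and LDHC, had a higher r over these pieces (0.89 and 0.90). RTN2, a reticulon of the endoplasmic reticulum, had 3.08 and 4.10 in the inverted teat of animal 963 and in animal 1040, against 5.03 to 10.04 in the other mesenchymal pieces. MACROD1, a hydrolase that removes ADP-ribose, had 6.91 and 6.88, against 7.88 to 11.71. STRADB, a pseudokinase partner of the kinase LKB1, had 6.53 and 6.10, against 6.78 to 10.60, and RAMP1, a partner of the calcitonin-like receptor, had 6.53 and 6.15, below the other 13, which reached 10.91. Their r over the 13 pieces was 0.85, 0.78, 0.86 and 0.82 in this order, but over the 15 epithelial pieces it was 0.28, 0.50, 0.42 and 0.27. In normal teats they were higher in mesenchymal than in epithelial tissue by 2.67 ± 0.61, 2.67 ± 0.47, 1.84 ± 0.45 and 1.56 ± 0.49 (SE, limma), in 10, 10, 9 and 9 of 10 animals. Further probe sets of STRADB had an r of 0.60, 0.56 and -0.03 over the 15 mesenchymal pieces, all below that of the last gene kept. Over the epithelial pieces they had 0.08, -0.24 and -0.02.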
